A study of Mus musculus with 6 samples.

Results

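Copper transport was examined through 8 genes, Atp7a, Atp7b, Slc31a1, Slc31a2, Atox1, Ccs, Cox17 and Commd1, among the 41388 genes counted in lung RNA of Zpbp2 mutant (KO) and wild type (WT) mice. The genes were matched by their symbols, and each symbol gave 1 gene. The set was chosen by gene name with KO against WT values of the same libraries already known, so the differences of these 8 genes between genotypes are given as a description, and no test of them counts as evidence. All 8 passed the filter on low counts.

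The KO mice, strain B6.129S7-Zpbp2tmZuk/Mmjax, lacked exons 1 to 3 of Zpbp2, a stretch that holds part of its promoter, on a C57BL/6J background, and the WT mice were C57BL/6J animals bred in the same colony. All animals were kept in cycles of light and dark, and lungs were taken at Zeitgeber time 7 (ZT7), 7 h after lights on. The study names adults of both sexes for its series over the day, and states no age or sex for these ZT7 mice. The deletion was carried in every cell, so no cell type of the lung was targeted on its own. The purpose of the study was to learn whether the region of Zpbp2 and Ormdl3 is tied to the circadian clock. RNA was sequenced from 3 mice of each genotype, and the libraries are called WT1, WT2, WT3, KO1, KO2 and KO3.

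Copper is needed by enzymes that move electrons or oxygen, and free copper ions harm cells, so copper is passed between proteins from the membrane to its targets. Slc31a1 brings it into the cell, small chaperones carry it to superoxide dismutase, to mitochondria and to the pumps, and the pumps Atp7a and Atp7b move it into the Golgi or out of the cell. In lung, Atp7a is known for loading copper into secreted enzymes such as extracellular superoxide dismutase and lysyl oxidases, which protect and crosslink the matrix. Loss of Atp7a function causes Menkes disease, and loss of Atp7b causes Wilson disease.

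Library totals ranged from 59134950 counts in KO3 to 71354388 in WT1. The variance between KO2 and KO3 was 1.71 to 1.93 times that of counting for genes with 20 to 20000 counts in the pair and 3.32 times above that. The other pairs of a genotype had 1.86 to 3.84 times at the lowest counts and 32.4 to 147 times at the highest. KO2 and KO3 were counted as 1 sample, although the study describes 3 KO mice, which left 3 WT and 2 KO samples. With the 6 libraries kept separate the test called 3402 genes in place of the 426 given next. Zpbp2 had 20, 15 and 7 counts in the WT libraries and 1, 0 and 0 in the KO libraries, which follows the labels. WT3 and KO1 stood apart from the other 4 libraries on the first principal component (69.2% of the variance), and both were high in squamous epithelium transcripts. The quasi-likelihood test of edgeR with Benjamini-Hochberg adjustment called 426 of 18660 tested genes at an adjusted p of at most 0.05, which is 2.28% of them (257 higher in KO, 1.38%, and 169 lower, 0.906%). With library size alone as the scaling, 117 genes were higher and 189 lower, so the share of calls in the upward direction went from 60.3% to 38.2%.

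Among the copper transport genes, Atp7a stood lower in KO lung and 7 genes had fold changes above 0. Values are CPM, counts per 1000000 counts of the scaled library, and fold changes are log2 ratios of KO to WT with their standard errors (SE). Atp7a was at 0.605 times its WT level, while the 7 others lay between 1.03 and 1.26 times theirs. Every KO library was below every WT library for Atp7a, and every KO library was above every WT library for Slc31a1, Atox1, Ccs, Cox17 and Commd1. For Cox17 this held with the scaling used, and by library size alone KO1 lies below WT2. The libraries of the genotypes overlapped for Atp7b and Slc31a2. Over all tested genes, 20.7% had every KO library below every WT library, 20.1% had every KO library above, and 40.8% had one or the other. The test called 2 of the 8, Atp7a lower and Ccs higher. These calls come from the contrast known when the genes were chosen and nothing is read from them. With 1 library left out the log2 fold change stayed between -0.74 and -0.70 for Atp7a and between 0.32 and 0.36 for Ccs.

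**Figure D1:**
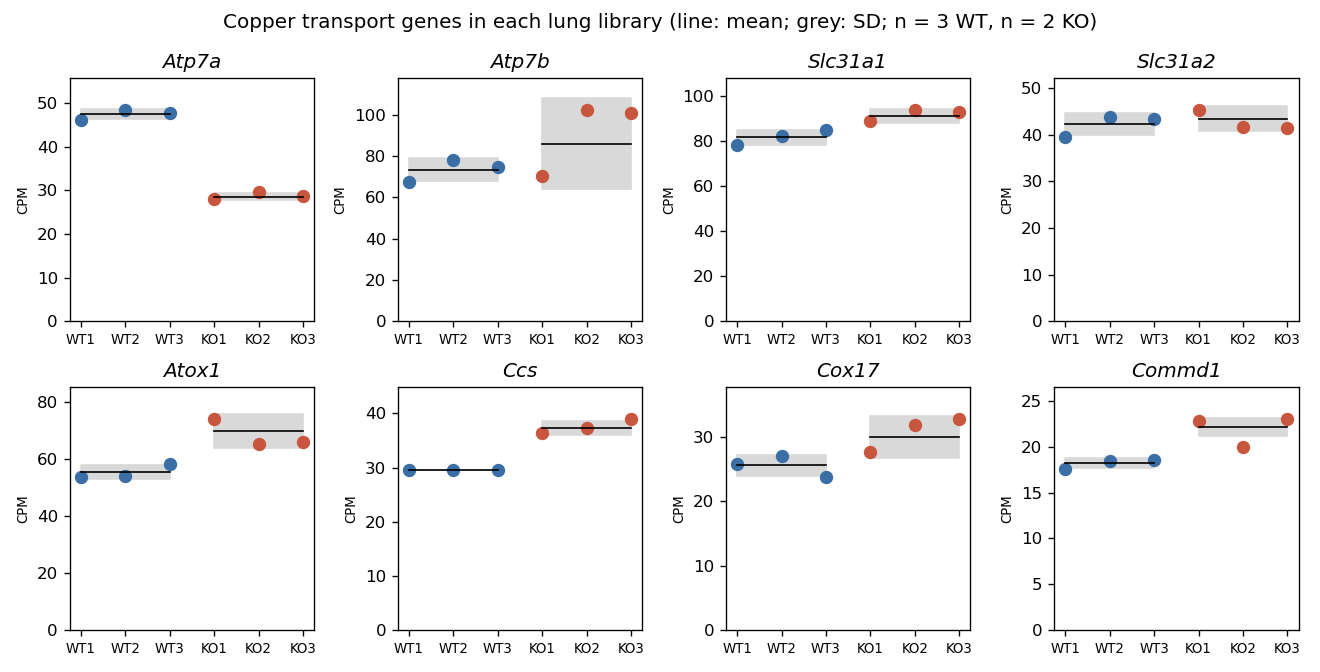
CPM of each copper transport gene in the 3 WT and 3 KO lung libraries, with a line at the mean of each genotype and a grey band of 1 SD (n = 3 WT, n = 2 KO, with KO2 and KO3 as 1 sample). Atp7a sits between 46.2 and 48.4 CPM in WT and between 28 and 29.8 CPM in KO, and the KO points of Ccs lie above a WT line with almost no spread.

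Promoters are shown for the pump Atp7a and the importer Slc31a1, which differed in opposite directions. The windows are the 250 bases before the RefSeq start on GRCm38.p6, chrX:106026974-106027223 and chr4:62360451-62360700, both on the plus strand and written 5′ to 3′, with capitals marking every match to the 3 motifs searched on both strands. The motifs were CACGTG (the E-box of clock and other bHLH factors), TGCACNC or TGCGCNC (the core of the metal response element bound by Mtf1) and GGGCGG (the GC box of Sp1).
Atp7a: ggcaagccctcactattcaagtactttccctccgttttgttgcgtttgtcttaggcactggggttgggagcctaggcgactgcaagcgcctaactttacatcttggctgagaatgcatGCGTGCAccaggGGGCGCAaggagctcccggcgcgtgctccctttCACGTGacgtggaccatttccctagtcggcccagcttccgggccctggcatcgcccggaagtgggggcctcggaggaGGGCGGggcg
Slc31a1: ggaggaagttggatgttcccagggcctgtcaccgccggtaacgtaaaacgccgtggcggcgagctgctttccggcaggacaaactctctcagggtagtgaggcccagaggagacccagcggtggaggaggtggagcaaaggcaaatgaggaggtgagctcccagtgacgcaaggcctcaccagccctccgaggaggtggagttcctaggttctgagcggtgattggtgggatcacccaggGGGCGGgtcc

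The Atp7a window held 1 E-box at 87 to 82 bases before the start, 2 metal response cores at 132 to 126 and 120 to 114 bases before it, and 1 GC box at 10 to 5 bases before it, with no overlap among them. The Slc31a1 window held 1 GC box, also at 10 to 5 bases before the start, and neither of the other motifs. Of 32851 promoter windows of this length, 6.02% held an E-box, 21.4% a metal response core and 32.7% a GC box. Windows were found for 6 of the 8 genes, with Ccs and Cox17 unmatched. Atp7b, Slc31a2 and both windows of Commd1 held 1 metal response core each, and the Atox1 window held a GC box at 24 to 19 bases before the start. A match describes the letters in the window and not a bound site.

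Atp7a (ENSMUSG00000033792) encodes the copper pump that serves most tissues outside the liver. On GRCm38 the gene lies on chromosome X from 106027276 to 106124926 on the plus strand, with 8734 bases of exon. Its level was 46.2, 48.4 and 47.7 CPM in WT1 to WT3 and 28, 29.8 and 28.7 CPM in KO1 to KO3, from 1675 to 3401 counts per library. The genotypes were separated by far more than the spread within either, with 47.5 ± 1.12 CPM in WT (SD, n = 3) and 28.6 ± 0.855 in KO (SD, n = 2). WT3 and KO1, the libraries that stood apart, were not set apart for Atp7a. The log2 fold change was -0.73 (SE 0.05), and 5.08% of tested genes had a fold change at or below it. It stayed below 0 in all 18 alternative settings, from -0.78 to -0.60. In bulk tissue, fewer cells of a type and less RNA per cell cannot be told apart.

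Atp7b (ENSMUSG00000006567), the related pump known from liver, lies on chromosome 8 from 21992785 to 22060305 on the minus strand. Its level was 67.5, 78.2 and 74.5 CPM in WT and 70.3, 102.2 and 100.6 CPM in KO. KO1 lay within the WT range and KO2 and KO3 lay above it. The means were 73.4 ± 5.48 CPM in WT (SD, n = 3) and 85.8 ± 21.99 in KO (SD, n = 2), with a log2 fold change of 0.23 (SE 0.17). It was at -0.07 without KO2 and KO3, at 0.46 without KO1 and at 0.48 without WT3 and KO1, and between 0.18 and 0.31 in the other alternatives. Hepatocyte transcripts, a list of 10 genes with none at 0 in every library, summed to 4.26 to 5.31 CPM in WT and 8.02 in KO1, whereas KO2 had 50.2 and KO3 49.9 CPM. Club cell transcripts were also higher in KO2 and KO3, at 48530 and 48330 CPM against 36690 in KO1 and 27200 to 31960 in WT. The part of either in the Atp7b values was not tested.

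Of the importers, Slc31a1 (ENSMUSG00000066150) encodes the high-affinity copper transporter of the plasma membrane and lies on chromosome 4 from 62360727 to 62391769 on the plus strand. Its level was 78.1, 82.3 and 84.6 CPM in WT and 88.9, 93.7 and 92.7 CPM in KO. The gap between the genotypes was small beside the levels, from WT3 at 84.6 to KO1 at 88.9. Its log2 fold change was 0.16 (SE 0.06) and stayed between 0.11 and 0.21 over the alternatives. Slc31a1 overlaps Cdc26 on the other strand without sharing exon bases.

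Slc31a2 (ENSMUSG00000066152) encodes a related protein of internal membranes and lies beside Slc31a1, from 62262562 to 62298411 on chromosome 4. Its level was 39.5, 43.8 and 43.4 CPM in WT and 45.3, 41.6 and 41.5 CPM in KO. KO2 and KO3 lay within the WT range and KO1 was the highest library. The log2 fold change was 0.04 (SE 0.07), and its direction depended on the setting: it was below 0 in 5 of 18, among them library size alone and the length offset.

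The 3 chaperones had fold changes above 0 in all 18 alternatives. Atox1 (ENSMUSG00000018585), which hands copper to both pumps, lies on chromosome 11 from 55446641 to 55461239 on the minus strand. Its level was 53.9, 54.3 and 58.5 CPM in WT and 74.1, 65.4 and 66.0 CPM in KO. KO1 was the highest library and WT3 the highest of the WT libraries. The means were 55.6 ± 2.54 CPM (SD, n = 3) and 69.9 ± 5.95 (SD, n = 2). The KO to WT ratio was 0.34 on the log2 scale (SE 0.07), with alternatives from 0.20 to 0.41.

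Ccs (ENSMUSG00000034108), the chaperone that loads superoxide dismutase Sod1, lies on chromosome 19 from 4825366 to 4839332 on the minus strand. Its level was 29.5, 29.6 and 29.6 CPM in WT and 36.4, 37.4 and 38.9 CPM in KO. The WT libraries were almost equal, with an SD of 0.0417 CPM (n = 3), and the KO libraries spread more, at 37.3 ± 1.25 CPM (SD, n = 2). The log2 fold change was 0.34 (SE 0.05), with alternatives from 0.18 to 0.36. Sod1 itself, which belongs to the wider list described further on, had 234 CPM in WT and 288 in KO. Its fold change of 0.31 (log2, SE 0.05) had an adjusted p of 0.0512 in the edgeR quasi-likelihood test after Benjamini-Hochberg adjustment, and Sod1 is named after its values were seen.

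Cox17 (ENSMUSG00000046516) carries copper for cytochrome c oxidase in mitochondria and lies on chromosome 16 from 38346991 to 38352763 on the plus strand. Its level was 25.8, 27.1 and 23.8 CPM in WT and 27.6, 31.8 and 32.7 CPM in KO. The groups came close to each other, with WT2 at 27.1 and KO1 at 27.6 CPM, and by library size alone KO1 lies below WT2. For Cox17 the log2 fold change was 0.23 (SE 0.10), with alternatives from 0.11 to 0.33. A readthrough gene model, Gm21987, shares 4.45% of the exon bases of Cox17 and had at most 4 counts in a library.

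Commd1 (ENSMUSG00000051355), a protein that acts on the trafficking of the copper pumps and is known from copper toxicosis in dogs, lies on chromosome 11 from 22896136 to 22982382 on the minus strand. Its level was 17.6, 18.5 and 18.6 CPM in WT and 22.8, 19.96 and 23 CPM in KO. KO2 lay nearest to WT and below KO3, the library it was summed with. The log2 fold change was 0.29 (SE 0.07), with alternatives from 0.23 to 0.33. The gene Zrsr1 runs against it on the other strand and shares 6.94% of its exon bases, and Zrsr1 had 45.6 CPM in both genotypes. On the same strand, Gm28048 shares 4.95% of the exon bases of Commd1 and had at most 4 counts in a library. Atox1 and Commd1 are the members on the chromosome of Zpbp2, at 43.1 and 75.6 Mb from it.

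**Figure D2:**
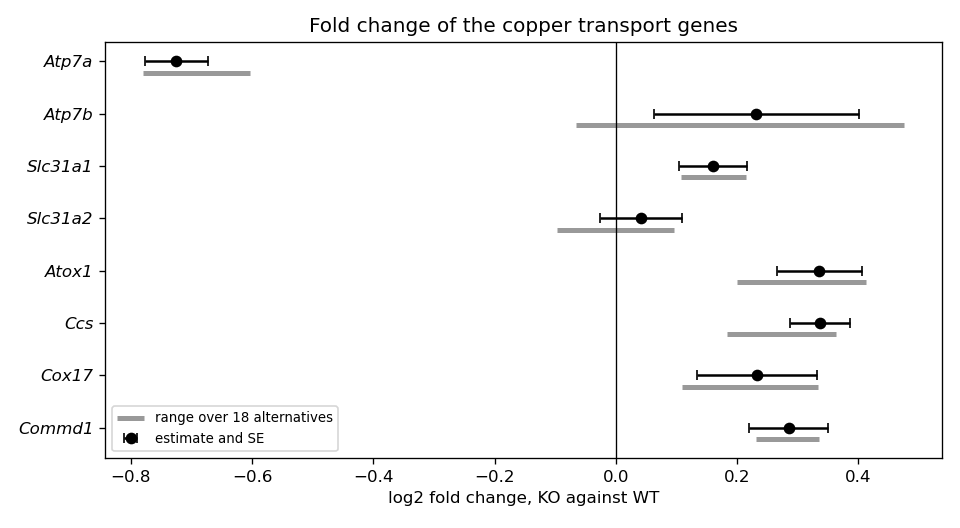
Log2 fold change, KO against WT, of the 8 copper transport genes with its SE (black) and its range over 18 alternative settings (grey). Atp7a lies at -0.73 with a range from -0.78 to -0.60, and the ranges of Atp7b and Slc31a2 cross 0.

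The median log2 fold change of the 8 genes was 0.23 beside 0.02 over all tested genes. With library size alone as the scaling these medians were 0.18 and -0.04, and 6 of the 8 genes were above 0, beside 8270 of 18660 tested genes. Without KO2 and KO3 the medians were 0.11 and -0.007, also with 6 of the 8 genes above 0. The summed level of the 8 genes was 358.2, 382.2 and 380.7 CPM in WT and 393.3, 421.6 and 424.1 CPM in KO. With the scaling used, every KO library was above every WT library in this sum, although it includes Atp7a. By library size alone, KO1 lies below WT2 in it.

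Ratios of counts within a library need no scaling between libraries. For each 100 counts of Slc31a1 there were 59.2, 58.8 and 56.4 counts of Atp7a in WT and 31.5, 31.8 and 30.9 in KO. This ratio of pump to importer was nearly the same in all 3 libraries of a genotype. For each 100 counts of Atox1 there were 85.7, 89.2 and 81.6 counts of Atp7a in WT and 37.8, 45.5 and 43.4 in KO. For each 100 counts of Atp7b, the other pump, there were 68.5, 61.9 and 64.0 counts of Atp7a in WT and 39.9, 29.1 and 28.5 in KO. KO1 stood apart from KO2 and KO3 in the ratio to Atp7b and the genotypes did not overlap in any of the 7 ratios, including those to Slc31a2 and Cox17. All 7 share the Atp7a counts, whose difference was known when the genes were chosen, so they are not 7 separate results. Atp7a made up 12.9%, 12.7% and 12.5% of the counts of the 8 genes in WT and 7.12%, 7.06% and 6.76% in KO.

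**Figure D3:**
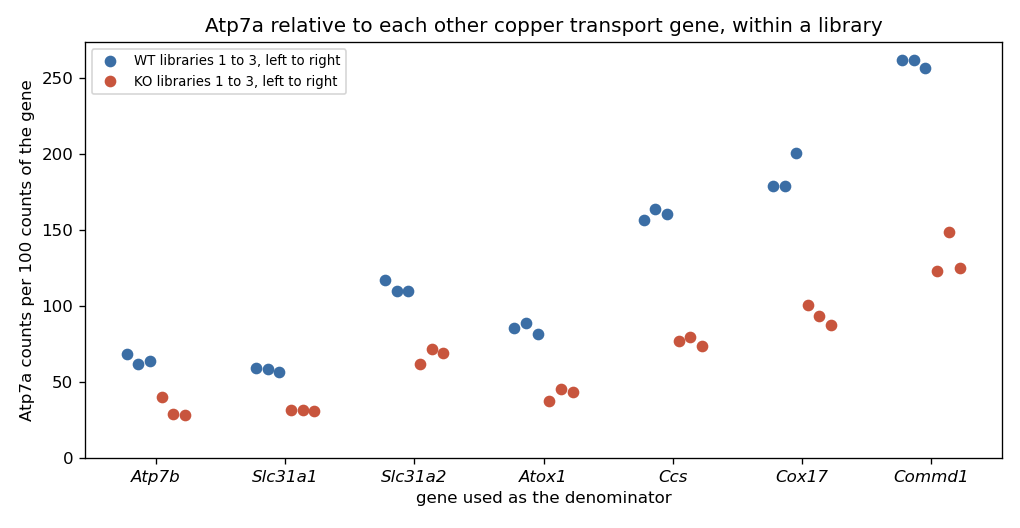
Counts of Atp7a per 100 counts of each other copper transport gene within a library, for WT1 to WT3 and KO1 to KO3 from left to right in each colour. The KO libraries lie below the WT libraries for all 7 denominators, for example 30.9 to 31.8 against 56.4 to 59.2 for Slc31a1. All 7 ratios share the Atp7a counts.

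Levels were compared between genes only per kilobase of transcript in WT lung. Atox1 was the highest with 103 ± 4.69 CPM per kb (SD, n = 3). Taken by the longest coding transcript, Ccs followed with 27.7, Slc31a2 with 23.2, Slc31a1 with 19.7, Atp7b with 11.3, Atp7a with 9.68, Cox17 with 6.92 and Commd1 with 4.04 CPM per kb. The ranges of the 3 WT libraries did not overlap between neighbours in this order. By the shortest coding transcript, Cox17 was at 57.5, Slc31a2 at 56.9, Commd1 at 38.8, Ccs at 35.2 and Atp7b at 18.2 CPM per kb. Cox17 and Commd1 thus moved from below Atp7a to above Ccs with the choice of transcript, while Atox1 stayed highest. Atp7a was at 9.68 or 9.75 CPM per kb, below Atp7b, Slc31a1, Atox1 and Ccs by either length.

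Gene length moved with the fold change across the table (Spearman rho of -0.33 over 18524 genes within these libraries, and genes are not independent replicates). The median log2 fold change was 0.19 for 2558 genes with 1000 to 2000 exon bases, -0.01 for 5158 genes with 4000 to 7000 and -0.11 for 2500 genes with 7000 to 11000. Atp7a falls in the last of these bands, where 4.44% of genes had a fold change at or below its own. Atox1 and Ccs, with 541 and 1782 exon bases, fall in bands with medians of 0.13 and 0.19. With an offset for length in each library, Atp7a was at -0.60, Atox1 at 0.20 and Ccs at 0.18, and the median of the 8 genes was 0.19. In that fit 4 genes of the whole table were called, none of them a member. Which part of the differences goes with length was not tested beyond this offset.

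**Figure D4:**
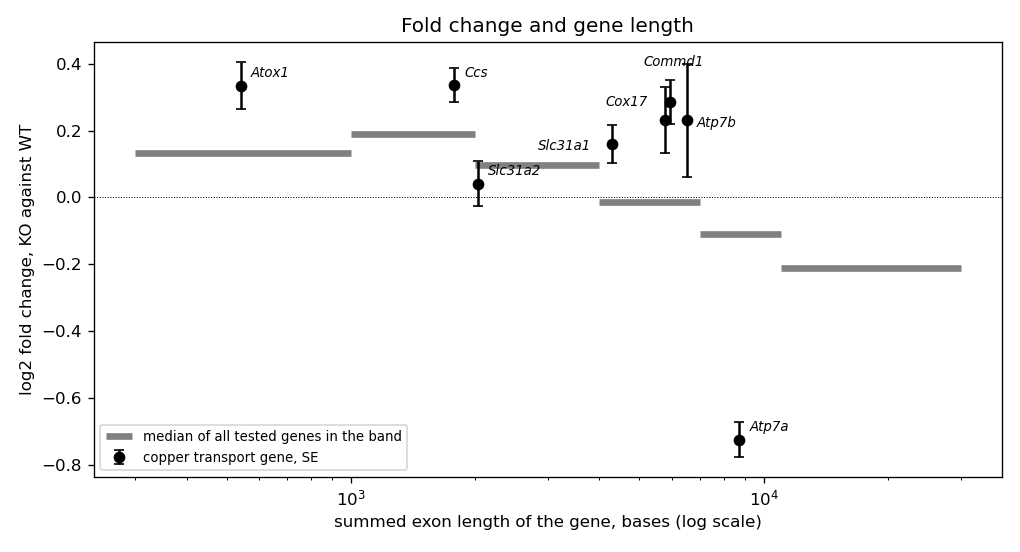
Log2 fold change, KO against WT, of the copper transport genes with SE against summed exon length (log axis), with grey bars at the median of all tested genes in 6 bands of length. The medians go from 0.19 at 1000 to 2000 bases to -0.21 at 11000 bases or more, and Atp7a at 8734 bases lies at -0.73.

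Cell type transcripts also differed between the genotypes. The 7 alveolar type 2 cell genes summed to 21050 to 22030 CPM in WT and 29820 to 31600 in KO, and the 4 alveolar type 1 cell genes to 3229 to 3362 and 4276 to 4523, so the tissue carried the defining markers of lung. The 10 macrophage genes summed to 546.8 to 709.2 CPM in WT and 496.9 to 507.6 in KO. The 10 adipocyte genes summed to 949.6 to 1429 CPM in WT and 215.3 to 394.8 in KO, and the 9 cardiomyocyte genes to 2612 to 7336 and 1369 to 1600. For all 5 of these lists, and for the club cell and hepatocyte sums given above, the libraries of the genotypes did not overlap. The same held for Atp7a, Slc31a1, Atox1, Ccs and Commd1, and for Cox17 with the scaling used. Within the lists, 1 of the 4 alveolar type 1 cell genes was lower in KO, and 1 of the 10 macrophage genes was higher. Endothelial genes (5 listed, 3088 to 3327 CPM in WT and 2892 to 3595 in KO) and mesenchymal genes (7 listed, 2273 to 2886 and 2106 to 2627) overlapped. The 8 erythroid genes summed to 2402 to 5520 CPM in WT and 3970 in KO1, whereas KO2 had 18990 and KO3 19730 CPM. The 10 squamous epithelium genes summed to 4788 CPM in WT3 and 9150 in KO1 against 21.9 to 33.2 in the others. No marker was at 0 in every library, and the part of these cell types in the values of the copper transport genes was not tested.

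The wider copper system was taken as 59 other genes in 7 groups, written with the members and with earlier results of these data known. Of these, 57 passed the filter (Tyr did not, and mt-Co2 had 0 counts in every library). The edgeR quasi-likelihood test with Benjamini-Hochberg adjustment called 2 of the 57, Ap1s1 higher and Aoc3 lower, beside 2.28% of all tested genes. Fold changes were above 0 for 38 and below 0 for 19, beside 9732 above and 8928 below over all tested genes. By library size alone they were 35 and 22, beside 8270 and 10390. Their median was 0.13 beside 0.02 over all genes, or 0.07 beside -0.04 by library size alone. Without WT3 and KO1 the median was 0.08 beside -0.003.

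Ap1s1, a subunit of the adaptor AP-1 that sorts Atp7a and Atp7b at the Golgi, had 47.4, 45.4 and 48.6 CPM in WT and 63.0, 60.0 and 59.1 in KO. The KO libraries were all above the WT libraries. It rose by 0.38 on the log2 scale (SE 0.05, adjusted p 0.0474 by edgeR with Benjamini-Hochberg adjustment), and was called in 10 of 18 alternatives, with adjusted p from 2.18e-07 to 0.368. Aoc3, a copper amine oxidase of vessels, smooth muscle and fat, had 54.5, 66.3 and 64.3 CPM in WT and 15.1, 13.9 and 15.0 in KO. Its KO libraries were all below its WT libraries, and it fell by 2.06 on the log2 scale (SE 0.10, adjusted p 0.0251 by edgeR with Benjamini-Hochberg adjustment), and was called in 13 of 18 alternatives, with adjusted p from 1.70e-67 to 0.189. The study picked Aoc3 from these libraries, and the adipocyte sums given above move with it. With all samples kept, Ap1s1 was not called by library size alone (adjusted p 0.0519, edgeR), with the length offset (0.0983, log2 fold change 0.25) or by the exact test of edgeR (0.368), while Aoc3 was called in each. Neither gene was called without WT1, WT2 or WT3, or without KO2 and KO3, where no gene of the table was, or without KO1, which left 1 KO sample. With 1 library left out the log2 fold change stayed between 0.34 and 0.40 for Ap1s1 and between -2.14 and -2.01 for Aoc3.

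By role, the COMMD and CCC complex genes, partners of Commd1 in endosomal sorting, had 11 of 12 fold changes above 0 (10 of 12 by library size alone), a median of 0.19 and none called, while without adjustment 8 passed the edgeR test at 0.05 as higher and 1 as lower, beside 13.9% and 13.4% of all tested genes. In 9 of them every KO library was above every WT library with the scaling used, beside 20.1% of all tested genes. The lower one was Ccdc93, named after its values were seen, at 45.1 CPM in WT and 35.5 in KO (log2 fold change -0.34, adjusted p 0.0578 by edgeR). The most abundant was Vps35l with 64.0 and 64.1 CPM and a log2 fold change of 0.01 that changed sign with the setting. The mitochondrial copper genes, which act beside Cox17, had 7 of 8 fold changes above 0 with a median of 0.13, but 4 of 8 and a median of -0.00 with the length offset, and none was called. The most abundant of them, the phosphate and copper carrier Slc25a3, had 310 CPM in WT and 333 in KO (0.10, SE 0.08). Its log2 fold change was 0.03 without KO1 and from 0.02 to 0.16 over the 18 alternatives.

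Among the copper enzymes, the clients of the chaperones and pumps, 8 of 17 fold changes were above 0 with a median of -0.09, or -0.01 with the length offset, and Aoc3 was the one called. The most abundant, mt-Co1 of cytochrome c oxidase, had 3657 ± 477 CPM in WT (SD, n = 3) and 3195 ± 348 in KO (SD, n = 2), with a difference of -0.19 on the log2 scale (SE 0.14). That difference was -0.09 without KO1 and -0.30 without WT3, and from -0.36 to -0.09 over the 18 alternatives. The storage genes had 2 of 4 above 0 (3 of 4 with the length offset), and their most abundant member, the metallothionein Mt1 that binds copper and zinc, had 35.4, 38.0 and 48.2 CPM in WT and 60.9, 51.0 and 51.4 in KO. The KO libraries of Mt1 were above the WT libraries, with a log2 fold change of 0.47 (SE 0.15) and an adjusted p of 0.135 in the edgeR test. Import and reduction genes had 3 of 6 above 0 (4 with the length offset, 2 by library size alone), led in level by the transcription factor Sp1 with 147 CPM in WT and 125 in KO (-0.23, SE 0.06, adjusted p 0.0990 by edgeR). Partners of the pumps had 3 of 5 above 0 (5 of 5 with the length offset), with Xiap at 149 and 136 CPM (-0.13, SE 0.09), and other copper-binding genes had 4 of 5, with App at 1133 and 1088 CPM (-0.05, SE 0.08).

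**Figure D5:**
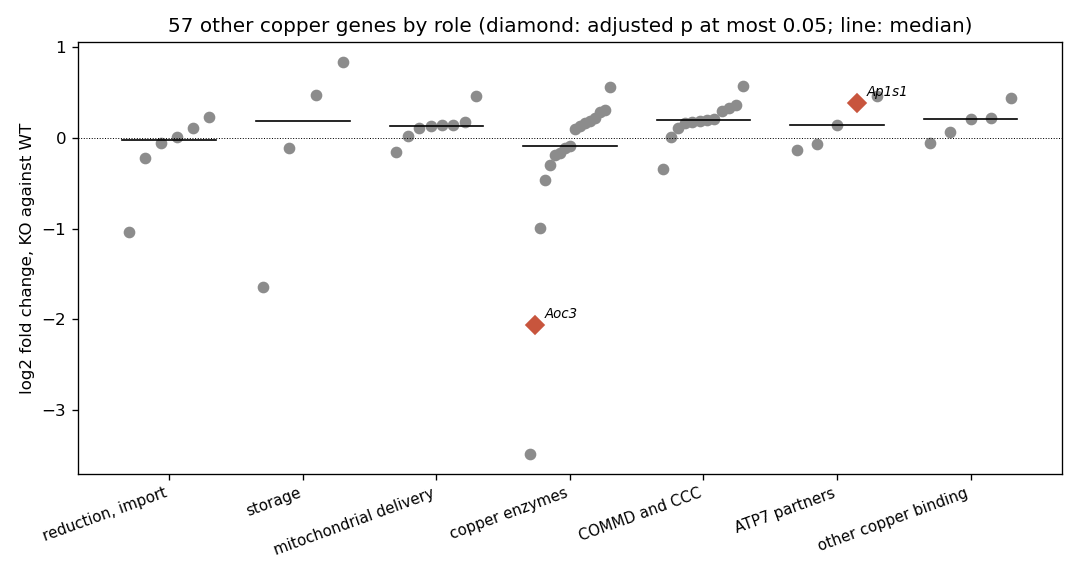
Log2 fold change, KO against WT, of the 57 tested genes of the wider copper system by group. Ap1s1 at 0.38 and Aoc3 at -2.06 are the genes the test called, and 11 of 12 COMMD and CCC genes lie above 0.

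The 5 genes whose log2(CPM + 0.5) over the 6 libraries was most like that of Atp7a were Tnfrsf11b (Pearson r of 0.9993), Ptch1 (0.9992), Pcnx (0.9987), Atf6 (0.9983) and Arhgef6 (0.9982), among 15148 genes with a mean of at least 1 CPM. Each had all KO libraries below all WT libraries, as Atp7a had, and Ptch1, the receptor of hedgehog ligands, was the nearest in size of change, with 82.8 CPM in WT and 50.9 in KO. The points of such an r are only 6 libraries, those of a genotype share that genotype, and 4.32% of the genes compared had an r of at least 0.95 with Atp7a. Of the other copper transport genes, Ccs had an r of -0.98, Atox1 -0.92 and Commd1 -0.90 with Atp7a, and Slc31a2 had -0.13.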

How the data were processed

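The authors deposited 1 table of raw counts, whole numbers of reads per gene for 6 lung libraries. Per the methods and the submitters' processing notes they trimmed reads with Trimmomatic 0.36, aligned them to GRCm38 (mm10) with STAR 2.5.3a, used Picard 2.9.0 and counted with HTSeq 0.6.0 in GenPipes. Whether counting used strand, and the annotation release, are not given in the sources used here, so overlapping genes are uncertain.

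The analysis used edgeR 4.0.16 under R 4.3.3 (filterByExpr, TMM factors, quasi-likelihood test, two-sided, Benjamini-Hochberg adjustment over 18660 genes, called at 0.05), tested first on simulated data. KO2 and KO3 were summed into 1 sample. The 18 alternatives held other samples, scalings, filters and tools, with DESeq2 1.42.0 as 1 of them. Lengths and positions came from GENCODE M21 on GRCm38, which held 97.5% of the identifiers, and promoters from RefSeq on GRCm38.p6. The members and lists were chosen with earlier results of these data known. Named genes were the 8 members, Zpbp2, called genes of the wider list, the most abundant gene of each of its 7 groups, and the 5 genes most like Atp7a over the libraries. Others are said to be named after their values were seen. Depth bounds counting error alone (Atp7a had at least 1675 counts in a library), and reads copied by PCR are not separate molecules.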

Additional observations from a re-analysis of the deposited data

How the results depend on the processing

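Atp7a was below 0 and Slc31a1, Atox1, Ccs, Cox17 and Commd1 above 0 in all 18 alternatives, whereas the number of calls depended on the setting. Counts are given as all tested genes, then the 8 copper transport genes, then the 57 others, beside 426, 2 and 2. With the 6 libraries kept separate the counts were 3402, 4 and 19, and with DESeq2 they were 3908, 4 and 19. With the length offset they were 4, 0 and 1. Without KO2 and KO3 they were 0, 0 and 0 (5070 genes at an unadjusted p under 0.05 in edgeR). Leaving out 1 library at a time gave 0 to 418, 0 to 2 and 0 to 3, with 0 genes without WT1, WT2 or WT3 (3642, 3346 and 4193 at an unadjusted p under 0.05 in edgeR) and 17 without KO1. Adding the replicate block to the fit of 6 separate libraries lowered its counts from 3402, 4 and 19 to 1157, 2 and 9. The counts were 937, 2 and 6 with at least 10 counts in every library, 1837, 3 and 12 with the squamous epithelium term (Atox1 added), and 2256, 3 and 9 without WT3 and KO1 (Atp7b added). The fits without KO1, without WT3 and KO1, and without KO2 and KO3 have 1 KO sample, which is assumed to vary like the WT samples. Library size alone left 1 member and 1 other called, no filter on low counts left 1 member, and the exact test left 209 genes and 1 member. The cause of these differences was not tested.

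The log2 fold change of Atp7a was -0.78 with library size alone, -0.60 with the length offset, -0.76 without KO2 and KO3, and from -0.74 to -0.70 with 1 library left out. Vps35l changed sign, to -0.024 with separate libraries, -0.026 with separate libraries and the replicate block, -0.048 with library size alone, -0.018 with the squamous epithelium term, -0.070 without WT3 and KO1 and -0.084 without KO1, with 1 library left out giving -0.084 to 0.018. Xiap was at 0.0030 and App at 0.15 with the length offset, and App was at 0.017 without KO2 and KO3. Without KO1, Xiap was at -0.063 and App at -0.14, and App was at -0.018 without WT3. The replicate numbers did not pair the libraries, since deviations from the group means had correlations of -0.685 for WT1 and KO1, 0.802 for WT2 and KO2 and -0.854 for WT3 and KO3. Of the 426 genes, 424 were called with 6 separate libraries and 412 when the block was added to that fit. No block was fitted to the 3 WT and 2 KO samples, since the sum of KO2 and KO3 has no single number. Zpbp2 gave a value in 13 of the alternatives.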
